A study of Mus musculus with 4 samples.

Results

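The genes of this account are *Apoe*, *Clu*, *Apod*, *Apoc1* and *Lpl*, which encode 4 apolipoproteins and lipoprotein lipase. They were chosen by symbol, and all 5 were found among the 31053 genes listed for each library. Their RNA was followed across the cell types of the mouse hippocampus after 2VO surgery, in which both common carotid arteries were clamped for 50 min and then released, and after sham surgery, in which the clamps were placed and released at once. The labels describe 2 sham and 2 2VO samples, all hippocampi of C57BL/6 mice aged 12 weeks with no genetic modification named, and the methods of the study give male mice and 1 mouse per library. The age is the label's, and the methods give a younger range. Sham 1, sham 2 and 2VO 1 were analysed, while 2VO 2 was not analysed here. The 2VO condition therefore rests on 1 mouse, and the spread between mice was measured only between the 2 sham libraries. The study places its expression measurements on the seventh day from surgery.

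Apolipoproteins are the protein coats of lipid particles, and because plasma lipoproteins hardly cross the blood-brain barrier the brain makes its own. Apolipoprotein E (*Apoe*), secreted chiefly by astrocytes and also by microglia, takes up cholesterol and phospholipid exported by the transporter ABCA1 and hands it to cells through lipoprotein receptors. Clusterin (*Clu*, apolipoprotein J) is a secreted chaperone that travels on the same kind of particle, apolipoprotein D (*Apod*) is a small lipid carrier of the lipocalin family made by oligodendrocytes and fibroblasts, apolipoprotein C-I (*Apoc1*) sits on particles and restrains lipase and receptor uptake, and lipoprotein lipase (*Lpl*) releases fatty acids from triglyceride. *Apoe* and *Lpl* are among the genes that microglia raise when they handle damaged myelin or other debris.

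*Apoc1* lies at chr7:19689481-19692660 and *Apoe* at chr7:19696109-19699188 (GRCm38, minus strand), so that 3448 bases separate them. Further along lie *Apoc4* (chr7:19678083-19681479) and *Apoc2* (chr7:19671579-19677941). *Lpl* lies at chr8:68880491-68907448 on the plus strand, *Clu* at chr14:65968483-65981547 on the plus strand and *Apod* at chr16:31296192-31314808 on the minus strand. Promoter sequences in RefSeq (GRCm38.p6) matched 2 of the 5 genes, *Apoe* and *Apod*, which are also the 2 that passed the test in the most cell classes. The 250 bases before their first start are shown on the gene's strand, with each match to GAGGAA, the purine-rich core bound by the myeloid factor PU.1, in capitals:
*Apoe*, chr7:19699189-19699438, minus strand: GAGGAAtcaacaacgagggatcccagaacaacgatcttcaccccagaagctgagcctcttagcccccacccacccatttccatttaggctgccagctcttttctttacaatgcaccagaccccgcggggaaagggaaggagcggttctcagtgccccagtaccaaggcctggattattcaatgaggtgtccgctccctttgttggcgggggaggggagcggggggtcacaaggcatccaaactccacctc
*Apod*, chr16:31314809-31315058, minus strand: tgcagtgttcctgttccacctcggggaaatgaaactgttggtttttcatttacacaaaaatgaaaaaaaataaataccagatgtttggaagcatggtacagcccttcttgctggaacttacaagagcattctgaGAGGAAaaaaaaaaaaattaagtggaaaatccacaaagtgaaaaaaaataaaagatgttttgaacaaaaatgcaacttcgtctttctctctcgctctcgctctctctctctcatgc

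In these stretches GAGGAA stood at position -250 of *Apoe* and at position -116 of *Apod*, counted back from the start. It was searched on both strands over 300 bases, from 250 before to 50 after the start, together with the nuclear receptor core site AGGTCA, the Sp1-binding GC box GGGCGG, the CAAT box with the letters CCAAT, and a TATA box spelled TATAAA. None of these motifs contains another. The 300-base windows also held GAGGAA on the other strand after the start, at position 2 of *Apoe* and position 23 of *Apod*, and neither held any of the other 4 motifs. Of the other *Apoe* starts in RefSeq, start 2 had the TATA box at positions -100 and -96 and start 3 the PU.1 core at -132. Of 32851 promoters of the same length, 28.3% held the PU.1 core, 16.3% the nuclear receptor core, 35.7% the GC box, 37.4% the CAAT box and 13.6% the TATA box. The matches are a description of letters in these windows.

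The 650-gene minimum left 14147 cells, of which sham 1 gave 5109, sham 2 gave 5126 and 2VO 1 gave 3912. Their total was 64667950, 39017426 and 17681002 unique molecular identifiers (UMIs, 1 per captured RNA molecule), with a median of 8191, 5249 and 2311 per cell, so that 2VO 1 was the shallowest library. Any 2 libraries shared 12 to 15 barcode sequences. Of 30 clusters, 28 were named from marker lists and joined into classes. The names mean that a cluster resembled the cell type (astrocyte-like and so on), and the suffix is left out here. The classes were astrocytes (ASTs), choroid plexus epithelial cells (CPECs), Cajal-Retzius neurons (CRNs), endothelial cells (ECs), ependymocytes (EPNs), glutamatergic neurons (GLUTNs), neural progenitor cells or immature neurons (NPCs), oligodendrocytes (OLGs), OLG precursor cells (OPCs), pericytes (PERs), vascular leptomeningeal cells (VLMCs), vascular smooth muscle cells (VSMCs), macrophages and microglia. The NPC class was cluster 18, led by *Igfbpl1*, *Neurod1* and *Sox11*, with no cell-cycle gene among its leading genes. *Top2a* and *Mki67* led an OPC cluster instead. The study names *Sox11* both as a progenitor marker and as an immature neuronal marker, so the name NPC does not tell these apart. The 5 genes took no part in the clustering. EPNs had 9 cells in 2VO 1 and were not tested, which left 13 classes with at least 10 cells in every library.

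Each of the 5 genes had its highest level in a different class. The level is given as CPM (the gene's UMIs scaled to a common total) normalized across all class-by-library sums, and the order is a description with no test. *Apoe* was highest in macrophages, at 44237 CPM in sham 1, 57891 in sham 2 and 30034 in 2VO 1. ASTs followed at 23467, 27161 and 17926 CPM, below the macrophages in every library and with no overlap of the ranges. The third place of microglia was set by the 2VO library, with 2954 and 934 CPM in the shams and 24284 in 2VO 1. EPNs, CPECs, VLMCs, OPCs, OLGs and ECs came next, each with a range that overlapped the one before it, ECs did not overlap with the PERs that followed, and GLUTNs were lowest, with a mean of 239 CPM.

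*Clu* was highest in ASTs at 5610, 7847 and 4767 CPM in sham 1, sham 2 and 2VO 1. The means of EPNs and CPECs, both ciliated or secretory epithelia that line the ventricles, were 3612 (shams only) and 3129 CPM and did not separate from each other, and the gap from there to OPCs, with a mean of 249 CPM, was not bridged by any library. *Apod* was highest in VLMCs, the fibroblasts of the brain's coverings and vessels, at 3629, 3789 and 3959 CPM. OLGs stood second at 2091, 2069 and 3117 CPM, and no other class exceeded a mean of 267 CPM. *Apoc1* was highest in CPECs, which secrete cerebrospinal fluid, at 265, 232 and 145 CPM, all above the EPNs with 42.9 and 83.1 CPM in the shams. *Lpl* had 4 classes with overlapping ranges at the top, namely VSMCs (mean 80.9 CPM), microglia (60.8), VLMCs (43.2) and GLUTNs (41.5), and had means below 10 CPM elsewhere. With plain CPM in place of the scaled values, CPECs fell from rank 5 to rank 7 for *Apoe* and their *Apoc1* mean fell to 105 CPM.

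**Figure D1:**
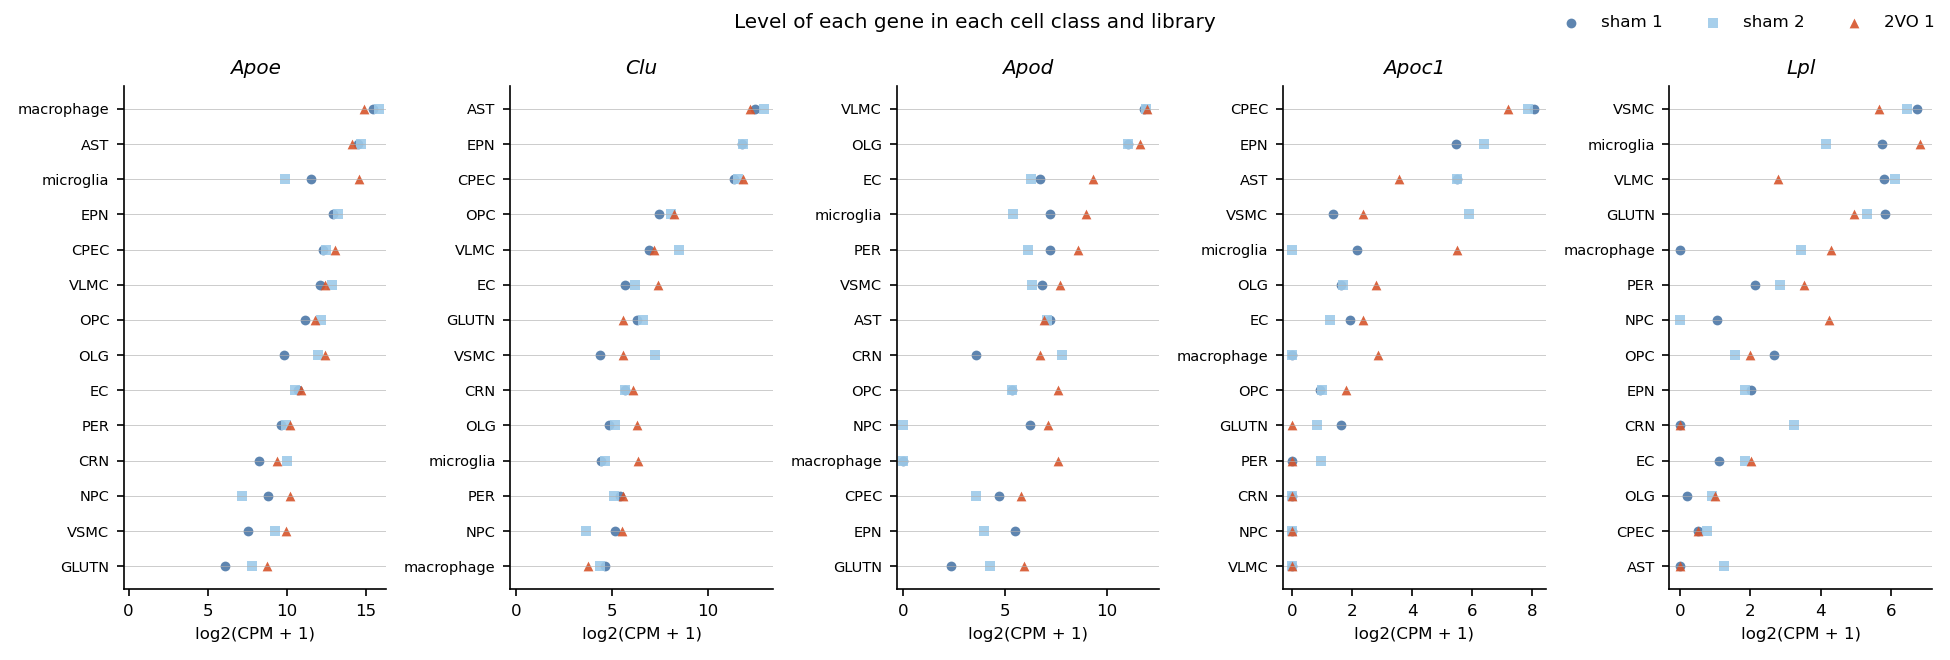
Level of each gene in each class and library as log2(CPM + 1), with classes ordered by the mean over libraries in each panel, circles for sham 1, squares for sham 2 and triangles for 2VO 1. *Apoe* is highest in macrophages and ASTs, *Clu* in ASTs, *Apod* in VLMCs and OLGs and *Apoc1* in CPECs, and the triangle of *Apoe* in microglia lies far to the right of both sham symbols.

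For the comparison of 2VO 1 with the 2 sham libraries, UMIs were summed per library and class and fitted with edgeR's quasi-likelihood test, with Benjamini-Hochberg adjustment over all genes of the class. Calls needed a fold above 1.5 together with an adjusted p below 0.05. The CPM in these comparisons are scaled within the class and differ from the levels above. Of 65 pairs of a gene and a class, 50 had enough counts to be tested and 15 did not. The test called 11 pairs higher and 1 lower in 2VO 1, against 2.65% called higher and 3.17% called lower of all 116124 gene-by-class tests. In 33 of the 50 tested pairs 2VO 1 lay above both shams and in 8 below both. The same counts were not taken over all genes, so they give no comparison with other genes. *Apod* was called higher in 5 of 13 tested classes, *Apoe* in 3 of 13, *Clu* in 2 of 12, *Apoc1* in 1 of 6 and *Lpl* in 0 of 6. In 3 of its 6 classes the unadjusted p of *Lpl* was below 0.05, and DESeq2 called it in 0.

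**Figure D2:**
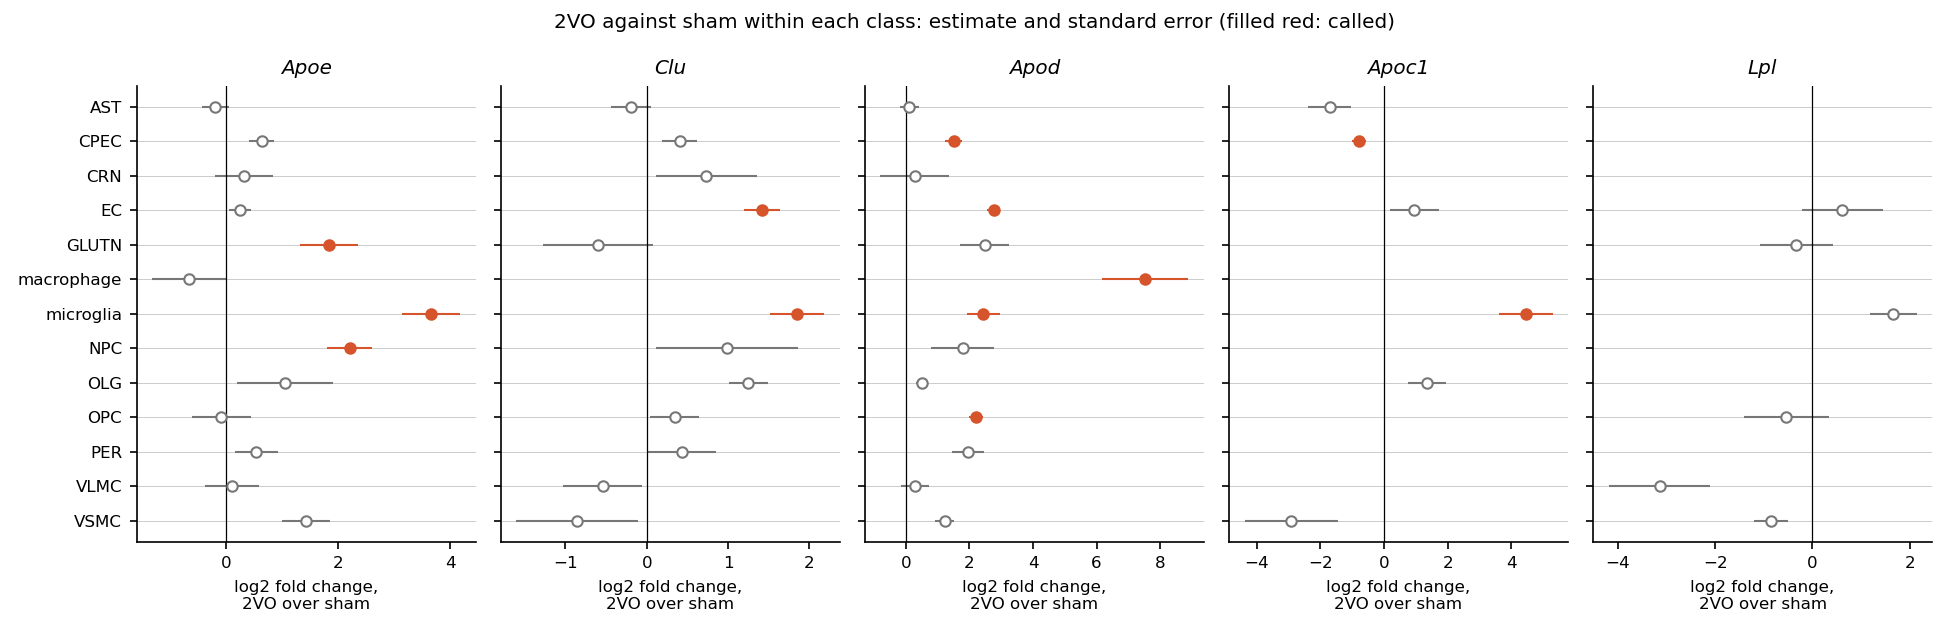
The log2 fold change of 2VO 1 against sham for each tested pair of gene and class, with bars of 1 standard error, filled red symbols for pairs called by edgeR and open symbols for the others. The calls on the right are *Apoe* in microglia, NPCs and GLUTNs, *Clu* in microglia and ECs, *Apoc1* in microglia and *Apod* in 5 classes, and the 1 call on the left is *Apoc1* in CPECs.

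Microglia, which clear debris and patrol the tissue, gave the most calls, with 4 of their 5 tested genes higher in 2VO 1. The class held 215, 204 and 388 cells, and 4.28% of its 9806 tested genes were called higher. *Apoe* read 2478 CPM in sham 1, 807 in sham 2 and 20745 in 2VO 1, from 2571, 663 and 20915 UMIs. The 2VO library stood far above both shams, which themselves differed by a wide margin. The log2 fold change was 3.66 ± 0.52 (SE; edgeR, adjusted p = 0.0104). The estimate was 4.70 without sham 1 and 3.07 without sham 2. Over 9 alternatives the adjusted p ran from 1.35e-72 to 0.334, the latter with edgeR's robust prior, the 1 alternative that ended the call.

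A larger part of the class carried *Apoe* in 2VO 1, and its counts were unevenly spread over the cells. Of sham 1 microglia 60.9% carried an *Apoe* UMI (exact 95% interval for counting error 54.1 to 67.5), of sham 2 microglia 49.0% (42.0 to 56.1) and of 2VO 1 microglia 92.8% (89.7 to 95.2). After every cell was thinned to 1000 UMIs, which left out 1, 0 and 13 shallower cells, the shares were 37.9%, 25.5% and 87.7%. VSMCs, a class low in *Apoe*, had shares of 46.5%, 45.2% and 71.1%, and of 19.2%, 17.8% and 50.4% after thinning, at median depths of 7471, 6614 and 3481 UMIs against 4835, 4236 and 1844 in microglia. In each library the thinned share of microglia was above that of VSMCs, and 2VO 1 had the highest share in both classes. Per 10000 UMIs of a cell, the median *Apoe* count of the 3 libraries was 2.51, 0 and 50.1, and the 90th percentile was 50.1, 15.2 and 624. Microglia with no *Apoe* UMI made up 39.1%, 51% and 7.22%, whereas cells with 1000 to 5000 per 10000 made up 0%, 0% and 5.15%.

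**Figure D3:**
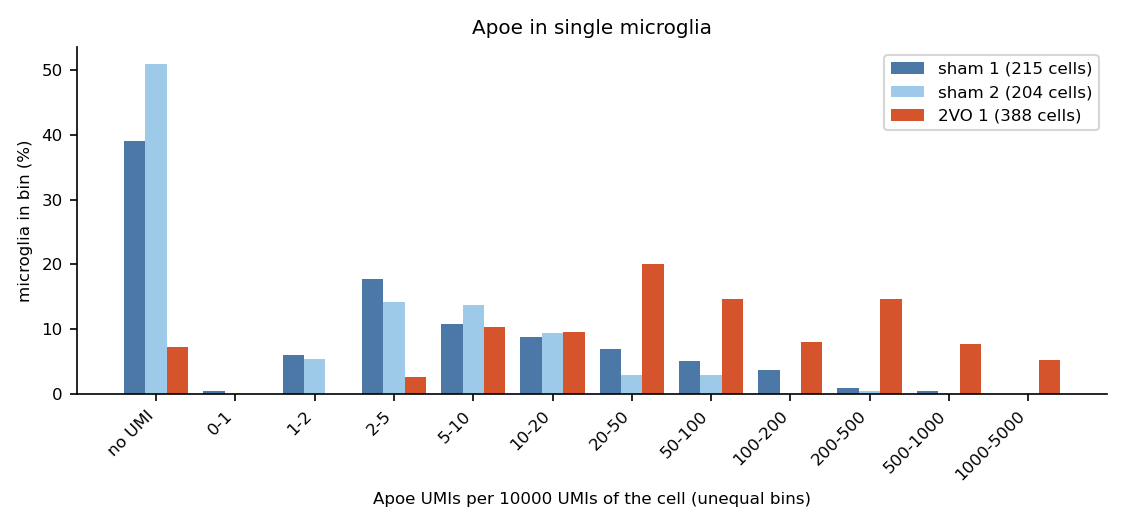
Percent of the microglia of each library (y axis) by the number of *Apoe* UMIs per 10000 UMIs of the cell (x axis, in bins), with 1 bar per library. The 2 sham libraries fill the lowest bins, and 2VO 1 is shifted to the right, with 5.15% of its cells in the highest bin, 1000 to 5000 per 10000.

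Most 2VO microglia lay in another cluster than most sham microglia. Cluster 10 held 79, 91 and 372 of the cells and cluster 15 held 136, 113 and 16. Within cluster 10 *Apoe* was 2429, 708 and 24937 CPM, and within cluster 15 it was 3088, 978 and 5158 CPM, so that 2VO 1 was highest in both, with the larger gap in cluster 10. The marker list of microglia itself summed to 7376 CPM in 2VO 1 and to 14225 and 15226 in the shams, while the lists of other cell types were higher in 2VO 1, at 701 CPM against 259 and 183 for macrophages, 3225 against 443 and 610 for ECs, 5319 against 2273 and 980 for CPECs and 9606 against 8686 and 878 for OLGs. The AST list, whose own cells are rich in *Apoe*, summed to 259, 282 and 355 CPM. In microglia with no UMI of any AST marker, 89, 84 and 218 cells, *Apoe* was 3448, 1246 and 24491 CPM. In microglia with no UMI of the macrophage list, 120, 128 and 189 cells, it was 839, 356 and 5514 CPM, a lower level in each library with 2VO 1 again the highest.

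A set of *Apoe*-rich microglia, with at least 100 *Apoe* UMIs per 10000, held 11 of 215 cells in sham 1 (5.12%), 1 of 204 in sham 2 (0.49%) and 138 of 388 in 2VO 1 (35.6%). The cut is a point on a range, with 19, 6 and 88 cells between 50 and 200 per 10000, and is not a cell type. In 2VO 1 these cells read 54245 CPM of *Apoe* and the other 250 microglia 2951 CPM, whereas microglia under the cut read 1164 CPM in sham 1 and 571 in sham 2. Most of the *Apoe* UMIs of 2VO microglia therefore lay in the cells above the cut. The 2VO cells above it carried more *Apoc1* (98.9 against 5.18 CPM) and *Lpl* (215 against 36.3 CPM) than the other microglia, and less *Apod* (274 against 584 CPM), while *Clu* was 62.1 against 81.2 CPM. The OLG list was lower in them too, at 6027 against 11795 CPM, and its part in the lower *Apod* was not tested. In the cells above the cut the microglia list was at 6651 against 7819 CPM and the macrophage list at 1486 against 221 CPM. Of the latter, 1472 CPM came from *Lyz2*, a lysozyme gene of myeloid cells, whereas *Mrc1*, *Cd163*, *Lyve1* and *F13a1*, which define border macrophages, were at 0 counts and *Pf4* at 2. These differences have no check in a further 2VO library. In sham 1 the 11 cells above the cut read 119 CPM of *Lpl* against 37 in the others, and 956 CPM of *Lyz2* against 186. Their *Apoc1* was 0 against 2.92 CPM, *Apod* 0 against 123 and *Clu* 0 against 17.5. The OLG list in them was 597 against 9213 CPM and the microglia list 8633 against 14589. Sham 2 had only 1 cell above the cut.

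*Apoc1*, the neighbour of *Apoe* on chromosome 7, was counted 3 times in the microglia of sham 1, 0 times in sham 2 and 38 times in 2VO 1. It was called higher, with a log2 fold change of 4.45 ± 0.85 (SE; edgeR, adjusted p = 0.0245) that was 8.12 without sham 1 and 3.65 without sham 2. As the shams held so few counts, the ratio of plain shares, with both shams pooled, is given with its counting interval. It was 26.8-fold with an exact 95% interval of 8.50 to 136. The interval takes each UMI as independent and holds no spread between cells or between mice. The 38 UMIs came from 21 cells, all in cluster 10. The call held in 8 of 8 alternatives with a test, at adjusted p values from 1.22e-07 to 0.0466. *Apoc4*, which lies on the far side of *Apoc1*, had 0, 0 and 16 counts in the same class and missed the threshold (edgeR, adjusted p = 0.0618), and *Apoc2* had 0 counts in every class and library.

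*Clu* in microglia read 17.4, 20.7 and 68.4 CPM, with both shams close together and 2VO 1 above them. The log2 fold change was 1.85 ± 0.33 (SE; edgeR, adjusted p = 0.0213), and it was called in 8 of 8 alternatives (adjusted p 7.98e-05 to 0.0370). A *Clu* UMI was found in 7.44%, 6.86% and 11.1% of the cells, and in 2.34%, 0.98% and 4.8% after thinning. In microglia with no AST-list UMI *Clu* stood at 23.1, 20.4 and 63.2 CPM, and per 1000 UMIs of the AST list it was 63.6, 68.5 and 208 in microglia against 225, 273 and 235 in ASTs. CPECs are also rich in *Clu*, and per 1000 UMIs of their list microglia held 7.23, 19.7 and 13.9 *Clu* UMIs, with 2VO 1 between the shams. In CPECs themselves that ratio was 5.87, 6.78 and 10.5. The part of CPEC RNA in the result was not tested.

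*Lpl* in microglia read 44.3, 14.6 and 96.2 CPM, from 46, 12 and 97 UMIs. 2VO 1 was above both shams, but the shams lay far apart and the difference was not called, at a log2 fold change of 1.66 ± 0.48 (SE; edgeR, adjusted p = 0.0768). Leaving out sham 1 gave 2.73 and leaving out sham 2 gave 1.12. The pair was called when doublets were removed (adjusted p = 0.0172), with at least 200 genes per barcode (0.0308) and with no filter on low counts (7.38e-05).

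*Apod* in microglia read 121, 35.3 and 431 CPM, again with a wide gap between the shams. The log2 fold change was 2.44 ± 0.52 (SE; edgeR, adjusted p = 0.0343), 3.63 without sham 1 and 1.83 without sham 2. It is the least stable of the 11 calls, since 5 of 9 alternatives ended it, and the adjusted p ran from 4.05e-15 to 0.376. An *Apod* UMI was found in 7.44%, 3.43% and 31.7% of microglia, and in 3.74%, 2.45% and 20.8% after thinning. Within cluster 10, which held most 2VO microglia, *Apod* read 368, 104 and 524 CPM. Within cluster 15, which held most sham microglia, it read 3.52, 6.04 and 31.5 CPM, from 2, 3 and 2 UMIs. The part of the cluster makeup in the class difference was not tested. Per 1000 UMIs of the OLG list in the same cells, microglia held 13.3, 37.6 and 48.5 *Apod* UMIs, against 14.4, 22.9 and 49.9 in the OLGs themselves, so that the 2VO ratios were close. In microglia with no OLG-list UMI *Apod* was 14.4, 4.05 and 165 CPM, from 1, 1 and 4 UMIs, and only 12 such cells remained in 2VO 1. The part of OLG RNA in the result was not tested.

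Macrophages, the *Apoe*-richest class, had 19, 23 and 43 cells. *Apoe* read 62886, 73649 and 43155 CPM, and 2VO 1 was the lowest of the 3. The macrophage list of the same cells summed to 16991, 15534 and 8107 CPM, the EC list to 28.7, 96.7 and 3866 CPM and the OLG list to 702, 338 and 5827 CPM. Per 1000 UMIs of the macrophage list *Apoe* was 3061, 3677 and 4202, highest in 2VO 1. The part of RNA of other cell types in the lower *Apoe* was not tested. The log2 difference of -0.66 ± 0.66 (SE) was not called (edgeR, adjusted p = 0.650). With doublets removed the estimate was -0.65 and was called lower (adjusted p = 7.17e-10), the lowest value over the alternatives of this pair. *Apod* went from 0 and 0 counts in the shams to 31 counts in 10 of 43 cells of 2VO 1 (23.3%, exact 95% interval 11.8 to 38.6), at least 12.7-fold higher against a floor of 3 counts over both shams. It was called higher (edgeR, adjusted p = 1.62e-06), in a class in which 5.13% of 2478 tested genes were. Of 6 alternatives, 5 kept the call, and the adjusted p ran from 3.66e-07 to 0.763, the latter with at least 200 genes per barcode. The OLG list was at 49, 35 and 823 UMIs in the same cells, which gives in 2VO 1 37.7 *Apod* UMIs per 1000 list UMIs, and the 2 macrophages of 2VO 1 with no OLG-list UMI held no *Apod*.

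ASTs, the main source of *Apoe* and *Clu* in the brain, had 212, 234 and 39 cells, and 8 of their 10621 tested genes (0.0753%) were called in either direction. *Apoe* read 23357, 26091 and 21599 CPM, with a log2 difference of -0.19 ± 0.24 (SE; edgeR, adjusted p = 0.776). *Clu* read 5584, 7537 and 5744 CPM, and *Apod* 144, 125 and 145 CPM. For these 3 genes the 2VO value lay within the sham range or near its edge, and none was called. *Apoc1* read 44.0, 42.4 and 13.2 CPM and was not called, with only 2 counts behind the 2VO value. Nearly every AST carried an *Apoe* UMI (99.5%, 100% and 100%), and *Lpl* was found in 0%, 0.855% and 0% of them.

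*Apod* was the gene with the most calls, and 2VO 1 lay above both shams in 12 of its 13 tested classes. No such count was taken over all genes, and in ASTs *Apod* read 145 CPM against 144 and 125 in the shams. In ECs, which line the vessels, it read 89.3, 65.9 and 527 CPM, the shams close together and 2VO 1 far above. The log2 fold change was 2.77 ± 0.21 (SE; edgeR, adjusted p = 0.00109), in a class with 1.79% of 12142 genes called higher. All 9 alternatives kept the call (adjusted p 4.46e-42 to 0.00612). An *Apod* UMI was found in 21.1%, 15.9% and 33.9% of ECs (exact 95% intervals 18.7 to 23.7, 14.1 to 17.7 and 31.2 to 36.7), and in 7.07%, 6.36% and 22.1% after thinning.

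The endothelial *Apod* was unevenly placed. Cluster 21, an EC cluster led by *Lcn2*, *Lrg1* and the venular chemokine receptor *Ackr1*, had 13, 34 and 122 cells and read 251, 275 and 1947 CPM. It gave 1142 of the 1819 *Apod* UMIs of 2VO ECs. Outside it 2VO 1 was also the highest, with 95.7, 66.6 and 292 CPM in cluster 0, 81.6, 72.0 and 250 CPM in cluster 4 and 81.7, 34.4 and 190 CPM in cluster 6, which is marked by the arterial genes *Gkn3* and *Bmx*. The OLG list summed to 2049, 822 and 3662 CPM in ECs, and *Apod* per 1000 of its UMIs was 43.1, 75.6 and 153, above the 14.4, 22.9 and 49.9 of OLGs in each library. In ECs with no OLG-list UMI, 73, 280 and 20 cells, *Apod* was 66.1, 85.4 and 197 CPM.

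In OPCs, the dividing precursors of OLGs, *Apod* read 48.0, 48.4 and 222 CPM, with a log2 fold change of 2.20 ± 0.22 (SE; edgeR, adjusted p = 0.000314). OPCs had the largest share of genes called higher among the 13 classes, 12.4% of 12639. The clusters differed in level and in their share of 2VO cells. Cluster 13 held 48, 38 and 385 OPCs and read 281, 228 and 267 CPM, with no separation of 2VO 1 from the shams, whereas cluster 3 held 551, 258 and 62 OPCs and read 14.2, 4.5 and 76.2 CPM. In cluster 3, which held most sham OPCs, 2VO 1 was above both shams, from 33 of the 393 *Apod* UMIs of 2VO OPCs. Cluster 16, with 182, 30 and 42 OPCs, read 42.1, 98.9 and 60.8 CPM, 2VO 1 lying between the shams. Cluster 26, with 65, 14 and 7 OPCs, read 3.65, 9.06 and 0 CPM, 2VO 1 being the lowest. The part of the cluster makeup in the class difference was not tested. The call was lost with at least 200 genes per barcode (adjusted p = 0.0529) and kept in the other 8 alternatives, the lowest adjusted p being 1.57e-13. *Apod* per 1000 OLG-list UMIs was 3.13, 7.58 and 38.7 in OPCs.

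In CPECs *Apod* was low, at 12.2, 5.64 and 26.9 CPM, and was called higher with a log2 fold change of 1.51 ± 0.26 (SE; edgeR, adjusted p = 0.000339), 2.24 without sham 1 and 1.13 without sham 2. Of 12805 genes in this class, 2.94% were called higher. The call ended with the robust prior (adjusted p = 0.144, the highest over 8 alternatives, from 1.81e-07). Per 1000 OLG-list UMIs CPECs held 17.7, 21.3 and 50.9 *Apod* UMIs, near the values of OLGs. In the 14 2VO cells with no OLG-list UMI *Apod* was 23.8 CPM against 9.01 and 3.19 CPM in the shams. These 3 values rest on only 3 *Apod* UMIs in 2VO 1, 1 in sham 1 and 3 in sham 2.

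**Figure D4:**
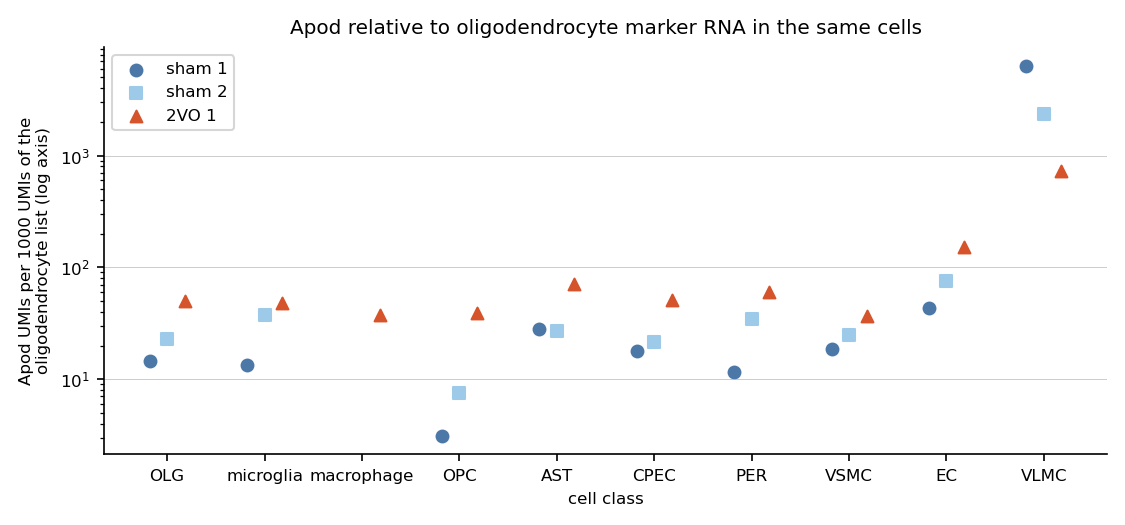
*Apod* UMIs per 1000 UMIs of the OLG marker list (y axis, log scale) in each library. The classes drawn are OLGs, microglia, macrophages, OPCs, ASTs, CPECs, PERs, VSMCs, ECs and VLMCs, and CRNs, EPNs, GLUTNs and NPCs are left out. Microglia, macrophages, OPCs and CPECs of 2VO 1 lie near the OLGs, at 37.7 to 50.9, ECs lie above at 153, VLMCs lie far above in every library at 725 to 6393, and the sham macrophages, at 0, cannot be drawn on the log axis.

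OLGs, the myelin-forming cells and a main *Apod* source, read 1553, 1576 and 2220 CPM, which was not called (log2 fold change 0.51; edgeR, adjusted p = 0.157). None of the 12495 genes tested in OLGs was called (0%), although the unadjusted p was below 0.05 for 4038 of them and DESeq2 called 134 higher and 1219 lower. Cluster 2 was 67.9% 2VO cells and cluster 1 only 3.18%. Within clusters *Apod* was 1986, 2011 and 3292 CPM in cluster 2 and 1909, 1605 and 1770 in cluster 1. It was 3621, 3339 and 4492 CPM in cluster 9, which is marked by *Klk6* and had the highest level in every library. Cluster 24 is also led by *Klk6* and read 1185, 1185 and 2203 CPM, so high *Apod* did not go with *Klk6* in both clusters. Cluster 17 read 569, 356 and 439 CPM. In VLMCs, the class with the highest level, *Apod* read 4550, 4503 and 5558 CPM and was not called, in a class with 1.26% of genes called in either direction. PERs read 168, 69.4 and 443 CPM (log2 fold change 1.95; edgeR, adjusted p = 0.323) and VSMCs 95.9, 65 and 183 CPM (1.22; edgeR, adjusted p = 0.123). In PERs 0 of 8629 genes (0%) were called by edgeR, the unadjusted p was below 0.05 for 1255, and DESeq2 called 2 higher. The corresponding share called in either direction was 0.241% in VSMCs.

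**Figure D5:**
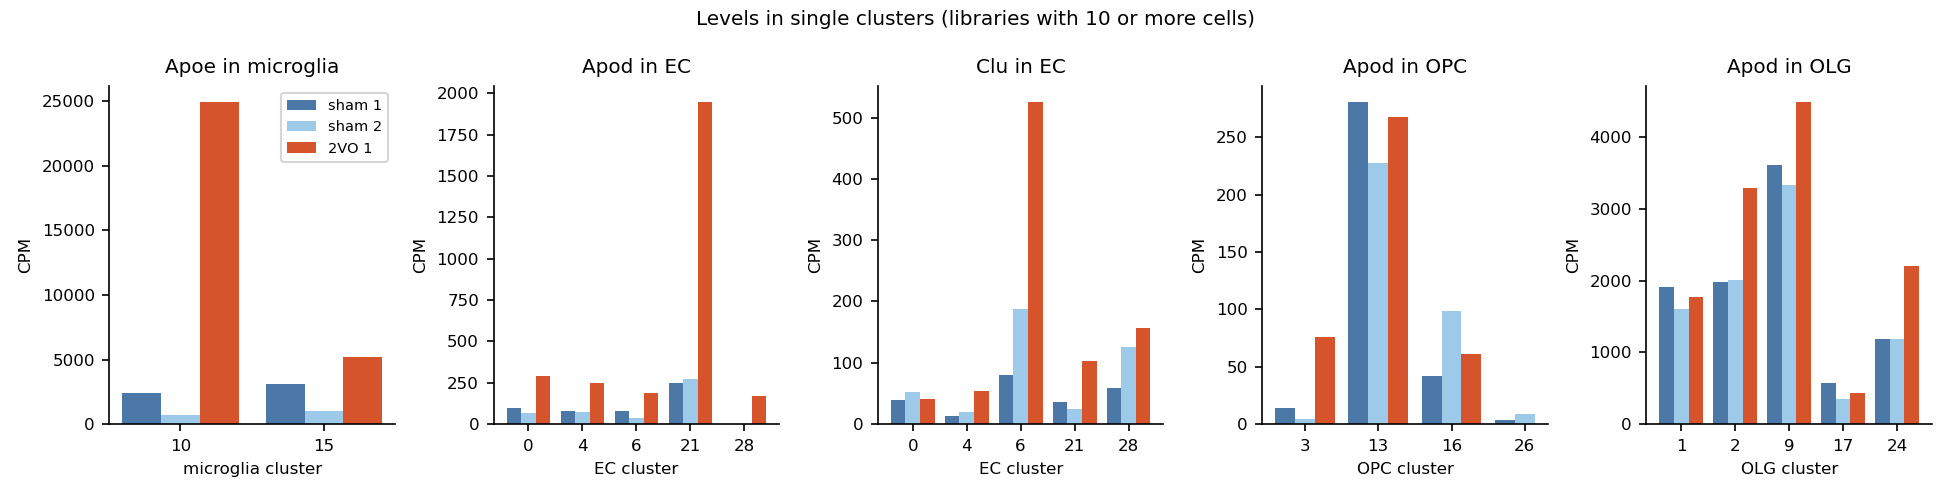
CPM of a gene in each cluster of a class and each library with at least 10 cells of the cluster, in 5 panels for *Apoe* in microglia, *Apod* in ECs, *Clu* in ECs, *Apod* in OPCs and *Apod* in OLGs. *Apoe* in cluster 10 of the microglia reads 24937 CPM in 2VO 1 against 2429 and 708 in the shams, *Apod* in EC cluster 21 reads 1947 against 251 and 275, and *Apod* in OPC cluster 13 reads 267 against 281 and 228.

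*Clu* was called higher in ECs as well, at 43.6, 62.3 and 142 CPM and a log2 fold change of 1.42 ± 0.22 (SE; edgeR, adjusted p = 0.0229). All 9 alternatives kept the call (adjusted p 5.91e-11 to 0.0493). A *Clu* UMI was found in 8.03%, 9.79% and 14% of ECs, and in 3.39%, 4.55% and 7.73% after thinning. The UMIs came mainly from the arterial cluster 6, with 327 of the 491 counts in 2VO 1 and 79.5, 187 and 525 CPM, while cluster 0, the largest, showed no such order with 40.0, 53.1 and 41.2 CPM. The AST list of ECs summed to 257, 179 and 281 CPM, and in ECs with no UMI of that list *Clu* was 27.8, 41.2 and 114 CPM. *Apoe* in ECs read 1493, 1267 and 1630 CPM and was not called.

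The 1 lower call was *Apoc1* in CPECs, the class where it is highest. It read 130, 119 and 72.6 CPM, with a log2 fold change of -0.78 ± 0.23 (SE; edgeR, adjusted p = 0.0237), in a class with 6.46% of genes called lower. An *Apoc1* UMI was found in 47.8%, 36.2% and 22.5% of CPECs, whose median depth was 39231, 28699 and 7502 UMIs. After thinning the shares were 6.78%, 5.71% and 8.52%, which goes against the order of the CPM, so no order is read from them. CPEC cluster 5 read 282, 189 and 124 CPM, but cluster 7 went the other way, at 203, 266 and 321 CPM. The call was lost with RLE size factors (adjusted p = 0.0512) and at resolution 2.0 (0.0597), the range over the alternatives starting at 0.00966. *Apoe* in CPECs read 2447, 2993 and 4203 CPM and was not called (log2 fold change 0.63; edgeR, adjusted p = 0.0642), and *Clu* read 1287, 1546 and 1875 CPM.

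*Apoe* was called higher in 2 classes of the neuronal line, both with few cells. In NPCs, 125, 63 and 32 cells, it read 579, 193 and 1809 CPM, with a log2 fold change of 2.20 ± 0.41 (SE; edgeR, adjusted p = 0.00392) that was 3.52 without sham 1 and 1.74 without sham 2. In GLUTNs, 48, 108 and 15 cells, it read 84.3, 274 and 660 CPM, with a log2 fold change of 1.83 ± 0.52 (SE; edgeR, adjusted p = 0.0351) that was 1.28 without sham 1 and 3.07 without sham 2. The share of all genes called higher was 2.15% in NPCs and 1.14% in GLUTNs. DESeq2 called neither, and the adjusted p ran over the alternatives from 6.88e-20 to 0.560 in NPCs and from 0.0160 to 0.545 in GLUTNs.

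Marker lists of several other cell types were higher in 2VO 1 in both classes. In NPCs the microglia list summed to 31, 11 and 167 CPM, the EC list to 111, 27.5 and 1908 and the CPEC list to 1156, 706 and 5573. The OLG list of NPCs summed to 10503, 187 and 9299 CPM, with 2VO 1 between the shams. In GLUTNs the microglia list summed to 25.9, 72.3 and 185 CPM, the EC list to 59.6, 230 and 1927 and the OLG list to 394, 744 and 3260. Per 1000 UMIs of the microglia list, *Apoe* was 16600, 15500 and 12000 in NPCs and 3200, 3218 and 3789 in GLUTNs. These ratios rest on only 25, 4 and 11 list UMIs in NPCs and 10, 87 and 19 in GLUTNs. In microglia themselves the ratio was 165, 49.5 and 3039. Per 1000 UMIs of the AST list, *Apoe* was 736, 341 and 2164 in NPCs and 133, 456 and 1895 in GLUTNs. In ASTs themselves that ratio was 943, 946 and 884. In NPCs with no microglia-list UMI, 106, 59 and 22 cells, *Apoe* was 512, 181 and 2011 CPM. In such GLUTNs it was 79.7, 229 and 246 CPM, with 7 cells in 2VO 1. In cells with no AST-list UMI, *Apoe* was 168, 50 and 1010 CPM in NPCs (5 cells in 2VO 1) and 46.9, 89.9 and 1754 CPM in GLUTNs (3 cells in 2VO 1). The part of RNA of other cell types in both calls was not tested. *Apoe* in CRNs read 406, 1506 and 1166 CPM, between the shams, in a class with 0.897% of genes called in either direction.

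In the other classes *Apoe* was not called. It read 669, 3057 and 3828 CPM in OLGs (log2 fold change 1.04; edgeR, adjusted p = 0.452), 2841, 5662 and 3996 in OPCs, 880, 998 and 1363 in PERs, 160, 488 and 878 in VSMCs (1.42; edgeR, adjusted p = 0.203) and 5473, 8970 and 7780 in VLMCs. The shams of OLGs and VSMCs differed widely, and 2VO 1 lay nearer to sham 2 than to sham 1. *Clu* in OLGs read 20.5, 26.4 and 55.6 CPM (1.25; edgeR, adjusted p = 0.0614).

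*Lpl* read lower in 2VO 1 than in both shams in the vessel wall classes where it is high, though no difference was called. VSMCs read 91.9, 70.2 and 44.0 CPM (log2 fold change -0.86; edgeR, adjusted p = 0.306), and an *Lpl* UMI was found in 40.4%, 30.9% and 14.8% of them, or in 8.08%, 6.95% and 3.55% after thinning. VLMCs read 68.5, 82.0 and 8.26 CPM, from 13, 38 and 1 counts (-3.14 ± 1.05 SE; edgeR, adjusted p = 0.227). GLUTNs read 71.2, 47.9 and 45.8 CPM, with 5 counts behind the last value. *Apoc1* in VSMCs was counted 1, 82 and 2 times, and the 82 counts of sham 2 came from 2 of 259 cells.

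Whether the 2VO effect in microglia differed from that in each other class was tested with a class-by-condition term and the library as a block. Of 60 tested pairs of a gene and a class, 8 were called, all with the larger effect in microglia. For *Apoe* the difference was above 0 against 12 of 12 classes, all compared with the same microglia sums, and was called against 5. It was 4.69 ± 0.93 (log2, SE) against macrophages (edgeR, adjusted p = 0.000311), whose own marker list was lower in 2VO 1 as given above, 3.80 ± 0.66 against VLMCs (edgeR, adjusted p = 0.00482) and 3.60 ± 0.50 against ECs (edgeR, adjusted p = 0.000305). Against ASTs it was 4.08 and missed the threshold (edgeR, adjusted p = 0.0554). Of all genes, 0.625% were called in the comparison with macrophages, 1.19% with VLMCs, 7.09% with ECs, 3.26% with CPECs and 2.44% with NPCs.

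The partners of these genes were taken from 5 lists. Receptors of lipoproteins and their helpers (13 genes) were called higher in 12 of 110 gene-by-class tests and lower in 0, where 2.65% of all gene-by-class tests were called higher and 3.17% lower. Of the 12 calls, 4 were in OPCs, the class with 12.4% of all genes called higher. In microglia 3 of 10 tested members were called, with a list median log2 fold change of 0.95 against -0.0024 over all genes. They were *Lrp8*, a brain receptor for apolipoprotein E and reelin (3.86, 6.08 and 33.7 CPM; edgeR, adjusted p = 0.0360), *Vldlr*, its close relative (11.6, 3.65 and 46.6 CPM; edgeR, adjusted p = 0.0388), and *Scarb1*, the HDL receptor (16.4, 8.52 and 50.6 CPM; edgeR, adjusted p = 0.0399). *Trem2*, the microglial lipid receptor that binds apolipoprotein E, read 2180, 2555 and 1789 CPM in microglia and was not called (log2 fold change -0.40; edgeR, adjusted p = 0.300). It was called higher in 3 classes that hardly express it, at 1.74, 2.25 and 27.2 CPM in ECs (edgeR, adjusted p = 0.00410), 2.24, 0.807 and 34.4 CPM in OPCs (edgeR, adjusted p = 0.000770) and 0.936, 2.12 and 6.60 CPM in CPECs (edgeR, adjusted p = 0.00135). The microglia list was also higher there in 2VO 1, at 38.7, 32.1 and 135 CPM in ECs, 49.2, 49.8 and 206 CPM in OPCs and 24.5, 22 and 61.2 CPM in CPECs, and its part in these calls was not tested. The other receptor calls included *Lrp1* in ECs (7.44, 8.67 and 31.0 CPM; edgeR, adjusted p = 0.0185) and in NPCs (106, 71.5 and 315 CPM; edgeR, adjusted p = 0.0110).

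Genes of lipid loading, remodelling and lysosomal release (11 genes) were called higher in 8 of 108 tests and lower in 2, against the same 2.65% and 3.17% of all tests, and 4 of the 8 higher calls were in OPCs. *Pltp*, which transfers phospholipid between particles, accounted for 4 of the higher calls. It read 66.5, 88.8 and 347 CPM in microglia (log2 fold change 2.16; edgeR, adjusted p = 0.00573), 34.3, 29.3 and 174 in GLUTNs (edgeR, adjusted p = 0.00439), 30.7, 6.22 and 247 in NPCs (edgeR, adjusted p = 0.00392) and 21.4, 54.4 and 136 in OPCs (edgeR, adjusted p = 0.00667). *Abca1*, the exporter that loads apolipoprotein E with cholesterol, was called higher in OPCs (58.4, 97.2 and 269 CPM; edgeR, adjusted p = 0.00355) and CPECs (22.9, 18.9 and 41.3 CPM; edgeR, adjusted p = 0.00237). In microglia it read 180, 212 and 292 CPM and was not called (edgeR, adjusted p = 0.175). *Npc2*, which moves cholesterol out of lysosomes, was called lower in NPCs and OPCs, at log2 fold changes of -1.43 and -0.86.

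Nuclear receptors and other regulators of lipoprotein genes (9 genes) were called higher in 3 of 69 tests and lower in 1, which is near the 2.65% and 3.17% of all tests. The sterol regulator *Srebf1* was called higher in microglia (8.68, 8.52 and 42.7 CPM; edgeR, adjusted p = 0.0302) and OPCs (24.0, 35.9 and 70.6 CPM; edgeR, adjusted p = 0.00883), *Srebf2* in NPCs (55.8, 31.1 and 178 CPM; edgeR, adjusted p = 0.0411), and the liver X receptor *Nr1h2* was called lower in OPCs (56.3, 58.1 and 31.6 CPM; edgeR, adjusted p = 0.0314). Of the other apolipoproteins (12 genes) only 5 tests were possible, with *Apoa2* in CPECs called lower (log2 fold change -0.90; edgeR, adjusted p = 0.0150). Of the partners of lipoprotein lipase and related lipases (9 genes), 0 of 34 tests were called by edgeR, the unadjusted p was below 0.05 in 6, and DESeq2 called 0. By DESeq2 the receptors had 1 call, lipid loading 4 higher and 1 lower, and the regulators and other apolipoproteins 0.

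The genes whose level most resembled each of the 5 were found from Pearson's r of log2(CPM + 1) over 41 class-by-library sums, among 10840 genes with a mean of at least 10 CPM. The sums share libraries and depths, so the values are a description. For *Apoe* they were *Abca1* (0.80), *Soat1* (0.80), *Appl2* (0.76), *Cyp4f13* (0.76) and *Slc15a2* (0.74), and for *Clu* *Plcd4* (0.91), *Adhfe1* (0.90), *Nwd1* (0.89), *Mt3* (0.87) and *A330048O09Rik* (0.87). For *Apod* they were *Il33* (0.86), *Ptgds* (0.84), *Csf1* (0.83), *Arhgap23* (0.82) and *Arhgef10* (0.82), and for *Apoc1* *4932438H23Rik* (0.86), *A330048O09Rik* (0.86), *Drc7* (0.84), *Rsph10b* (0.82) and *Gm29538* (0.82). *Lpl* had no close likeness, its nearest being *Npy1r* (0.68), *Trp53i11* (0.67), *Hivep2* (0.65), *Itga8* (0.63) and *Dgkd* (0.62).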

How the data were processed

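Single-cell RNA of hippocampi was measured with the 10x Genomics 3′ kit, which tags each molecule with a UMI, and free RNA in the suspension can add UMIs to any cell. The deposited values are raw UMI counts per gene and barcode, which the authors obtained with Cell Ranger on GRCm38/mm10. The submitters' processing notes also name Seurat 3.2.2. The cell calling before deposit is not given in the sources used here. No other sample's columns were present (0).

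Following the study, the minimum was 650 genes per barcode. Clustering used the 16993 genes found in 20 or more cells (scanpy 1.11.5, leidenalg 0.10.2, 2000 variable genes without the 5 studied genes, 30 principal components, 15 neighbours, resolution 1.0). Clusters were named from 15 marker lists by a rule written with the clusters already in view, and 2 clusters of 279 and 58 cells stayed unnamed. Doublets were scored with Scrublet, whose own threshold failed in 2VO 1, so the highest 5% of scores per library were marked (247, 251 and 191 kept cells). They were kept in the main values and removed in an alternative. UMIs were summed per library and class, filtered by filterByExpr, scaled by TMM and tested with edgeR 4.0.16 (quasi-likelihood, R 4.3.3), 2 sham libraries against 1, which leaves 1 residual degree of freedom. Each library is a separate mouse. The study also speaks of sequencing batches, which cannot be told apart from the libraries here. p-values were adjusted by Benjamini-Hochberg over all genes of a class. The study itself ran Mann-Whitney U tests over single cells. Intervals of shares are exact Clopper-Pearson 95% intervals, for counting error only, and the floor of a 0 is 3 counts. The method was tested on simulated data in which both sham libraries had the same mean profile. Such data do not carry the spread seen between the real shams.

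Alternatives were RLE size factors, DESeq2 1.42.0, no filter, at least 200 genes, doublets removed, resolution 2.0, the 5 genes among the variable genes, each sham library left out and, chosen after seeing the data, the robust prior, bias-adjusted quasi-likelihood and cells with no UMI of a marker list. The genes, lists and tests were chosen with earlier results of these data known. Named genes are the 5 in every tested class, at most 3 called genes per partner list and class by smallest p, and the 5 most similar genes. Genes quoted beyond that rule (*Apoc4*, *Apoc2*, *Lyz2*, *Trem2* and *Abca1* in microglia, and cluster leaders) were picked after their values were seen. Results of some genes are left out.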

Additional observations from a re-analysis of the deposited data

Results flagged for a closer look

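The results listed here are those in which the change from sham to 2VO differed between microglia and another class by edgeR's quasi-likelihood test of the class-by-condition term, with Benjamini-Hochberg adjustment over all genes of the pair of classes. All are log2 differences, microglia minus the other class, with 1 residual degree of freedom and 1 2VO mouse behind them. For *Apoe* they were 4.69 against macrophages (edgeR, adjusted p = 0.000311), 3.80 against VLMCs (0.00482), 3.60 against ECs (0.000305), 3.17 against CPECs (0.0153) and 1.54 against NPCs (0.0189). For *Apoc1* the difference was 5.25 against CPECs (edgeR, adjusted p = 0.00223), where the gene fell in 2VO 1 while it rose in microglia. For *Lpl* it was 5.10 against VLMCs (edgeR, adjusted p = 0.0174), although neither class alone was called, and the 2VO value of VLMCs rests on 1 count. For *Apod* it was 2.44 against VLMCs (edgeR, adjusted p = 0.0392). With groups of 2 and 1, no library could be examined as an outlier.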

How the results depend on the processing

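No paired analysis was possible, because the labels number the replicates within each group and name no pairs of sham and 2VO mice. The number of pairs called higher, 11 in the main analysis, was 5 with DESeq2, 17 with no filter on low counts, 7 with edgeR's robust prior and 19 with doublets removed, and 9 to 12 with RLE size factors, the bias-adjusted fit, at least 200 genes per barcode, resolution 2.0 or the 5 genes among the variable genes. The number called lower, 1, was 0 with RLE size factors and at resolution 2.0, and 2 with no filter and with doublets removed. The 12 called pairs kept their direction in each of these that gave a value, while *Apod* in CRNs, not called, went from a log2 fold change of 0.28 to -0.06 with DESeq2. After thinning, the share of microglia with an *Apoe* UMI was 37.9%, 25.5% and 87.7%. With plain CPM, the mean level of *Apod* in VLMCs was 4289 CPM in place of 3793 and that of *Apoc1* in CPECs 105 in place of 214. The causes of these shifts were not tested. Leaving out a sham library gives values with no test. Macrophages were not named at resolution 2.0 or with the 5 genes among the variable genes and have no value there. The design holds 1 2VO library, the shallowest, so depth, animal and surgery cannot be told apart.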

Other observations

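Summed over all kept cells of a library, *Apoe* read 2213 CPM in sham 1, 3544 in sham 2 and 5302 in 2VO 1, *Clu* 671, 791 and 1102, *Apod* 497, 440 and 583, *Apoc1* 49.8, 32.8 and 41.4 and *Lpl* 3.51, 7.69 and 8.82. These sums move with the cell types a library holds. In the barcodes with fewer than 650 genes, which entered no comparison, *Apoe* read 7805, 3032 and 9062 CPM and *Apod* 140, 161 and 484 CPM.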
